A study of Mus musculus with 9 samples.

Results

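The 7 genes described here encode secreted proteases of the ADAMTS family (a disintegrin and metalloproteinase with thrombospondin motifs): Adamts1, Adamts4, Adamts5, Adamts9, Adamts12, Adamts14 and Adamts15. They were found by their symbols in a table of 54532 mouse genes, and all 7 were present. RNA was sequenced from whole mouse skin in 3 groups of 3 libraries each, all of a wild-type genotype. The control group was healthy skin, the bleomycin group was skin treated with bleomycin, and the nitrate group was skin treated with bleomycin and with nitrate, which the series title describes as topical. Bleomycin is a DNA-breaking antibiotic, and mice that receive it serve as a model of fibrotic skin in systemic sclerosis. Nitrate was given with bleomycin only, so no library shows nitrate alone. The sources used here give no dose, duration, strain, sex or age and no number of animals. The p-values therefore measure the spread between these libraries, which may be technical.

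ADAMTS proteases are made as inactive precursors, lose their propeptide to furin-like convertases and cut proteins of the extracellular matrix at a site that holds a zinc ion. Adamts4 and Adamts5 encode the classical aggrecanases, which cut the large proteoglycans aggrecan and versican, and Adamts1, Adamts9 and Adamts15 encode further proteases that cut versican or aggrecan. Adamts14 belongs with Adamts2 and Adamts3 to the procollagen N-proteinases, which trim the amino-terminal propeptide of fibrillar procollagens, and Adamts12 encodes a relative of Adamts7 that cuts cartilage oligomeric matrix protein. In skin these enzymes are known for the turnover of versican and hyaluronan-rich matrix and for the assembly of collagen fibrils.

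The zinc-binding stretch shows which bases the 7 genes share and where an intron splits it in each. The coding bases of that stretch are shown as they stand in the GENCODE M21 transcripts, 36 bases per gene from 5′ to 3′, with the codons of the 3 zinc-binding histidines in capitals. Positions are on mm10 (GRCm38) and run from the first to the last base, intron included.

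Adamts1 (chr16:85799188-85799545, minus strand): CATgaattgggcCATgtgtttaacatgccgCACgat
Adamts4 (chr1:171253210-171253918, plus strand): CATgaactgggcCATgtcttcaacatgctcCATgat
Adamts5 (chr16:85878012-85887826, minus strand): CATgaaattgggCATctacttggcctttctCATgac
Adamts15 (chr9:30911252-30911690, minus strand): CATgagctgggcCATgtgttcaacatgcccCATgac
Adamts9 (chr6:92905282-92908493, minus strand): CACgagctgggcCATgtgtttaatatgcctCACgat
Adamts12 (chr15:11241529-11255567, plus strand): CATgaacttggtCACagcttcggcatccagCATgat
Adamts14 (chr10:61225462-61227123, minus strand): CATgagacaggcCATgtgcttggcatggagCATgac

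Of the 36 bases, 14 were the same in all 7 genes. The number of identical bases in a pair ran from 20, for Adamts5 with Adamts9 and for Adamts9 with Adamts12, to 32, for Adamts4 with Adamts15. Every one of the 7 stretches was split by an intron. In Adamts1, Adamts4, Adamts5 and Adamts15 the split came after base 10, a position shared by 5 of the 19 ADAMTS genes, the fifth being Adamts8. In Adamts9, Adamts12 and Adamts14 it came after base 17, as in 14 of the 19. The position of the intron thus set the 4 genes apart from the other 3 of the 7. The bases did not follow that split. Adamts9 shared 31, 28 and 30 bases with Adamts1, Adamts4 and Adamts15, while Adamts5 shared 22, 21 and 22 with them.

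The genes lie on 6 chromosomes. Adamts4 (ENSMUSG00000006403) spans chr1:171250421-171260637 and Adamts15 (ENSMUSG00000033453) spans chr9:30899155-30922452. Adamts1 (ENSMUSG00000022893, chr16:85793827-85803113) and Adamts5 (ENSMUSG00000022894, chr16:85856173-85901828) lie near each other on the minus strand, with 53059 bases and 1 other gene of the table between them. Adamts9 (ENSMUSG00000030022) is the gene with most exons, 40, at chr6:92772699-92943492. Adamts12 (ENSMUSG00000047497) spans chr15:11064790-11349231 and Adamts14 (ENSMUSG00000059901) spans chr10:61197112-61273438. The sources used here do not say whether counting used the strand. The 3 opposite-strand genes that overlap Adamts9 were below 0.5 FPKM in each library.

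Levels are given in FPKM, fragments per kilobase of gene relative to library size, as the authors deposited them. Each library held 15804050 to 18352592 reads, as recovered from the FPKM. Every one of the 7 genes was above 1 FPKM in all 9 libraries, and its lowest library had between 253 and 1157 reads. Markers of skin were present, with summed FPKM of 4 keratinocyte markers of 1683 to 8588 and of 7 fibroblast markers of 167 to 630 over the libraries. Libraries of 1 group differed in hair follicle markers (15 genes), whose summed FPKM was 3.50 to 2583 in control, 50.3 to 4377 in bleomycin and 2120 to 13901 in nitrate, with control 1 and bleomycin 1 the lowest of their groups. Of these 15 genes, 6 (Krt25, Krt27, Krt31, Krt33b, Krt34 and Krt35) were listed at 0 in at least 1 library. Skeletal muscle markers (9 genes) summed to 12534 to 18333 FPKM in control, 2608 to 11619 in bleomycin and 1976 to 9120 in nitrate. Of these 9 genes, Tnnc2 was listed at 0 in every control and bleomycin library and had 0 to 2 reads in each library. Mitochondrial transcripts took 6.45 to 7.78% of reads in control, 3.59 to 4.03% in bleomycin and 2.74 to 4.34% in nitrate. In bulk skin, fewer cells of a type and less RNA per cell cannot be told apart.

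**Figure D1:**
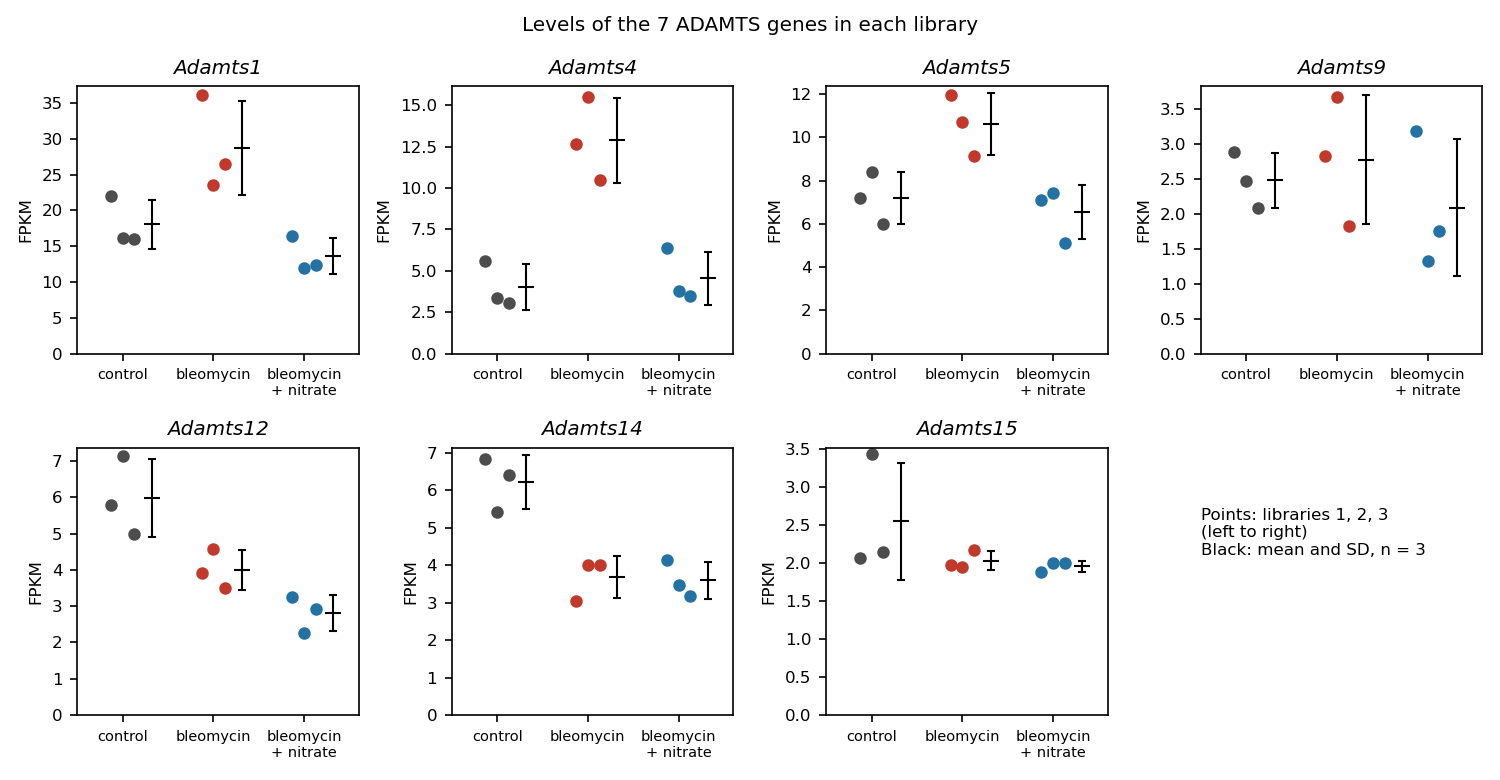
FPKM of the 7 genes in each library, one panel per gene with its own axis from 0; points are libraries 1, 2 and 3 of control, bleomycin and bleomycin with nitrate, and the black bar is the mean with its SD (n = 3). Adamts4 stood between 10.5 and 15.5 FPKM in bleomycin against 3.03 to 5.60 in control, and Adamts14 stood at 5.41 to 6.83 in control against 3.05 to 4.02 in bleomycin.

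Adamts4, one of the classical aggrecanases, rose in bleomycin-treated skin. It stood at 5.60, 3.38 and 3.03 FPKM in control 1, 2 and 3, at 12.6, 15.5 and 10.5 FPKM in bleomycin 1, 2 and 3, and at 6.37, 3.78 and 3.46 FPKM in nitrate 1, 2 and 3. All 3 bleomycin libraries were above all 6 others, and nitrate and control overlapped. Mean FPKM ± SD (n = 3) was 4.001 ± 1.40 for control, 12.9 ± 2.54 for bleomycin and 4.54 ± 1.59 for nitrate. Bleomycin was thus 3.22 times control in mean FPKM, a difference of 1.49 ± 0.25 in log2(FPKM + 1) (estimate ± standard error from limma, 95% interval 0.91 to 2.07), with an adjusted p of 0.0135. The adjustment (Benjamini-Hochberg) ran over the 14645 genes with at least 1 FPKM in at least 3 libraries, a gene was called at an adjusted p under 0.05, and the added 1 makes fold changes of low genes smaller. The call was lost without control 2 (1.41, adjusted p = 0.0602) and without both control 1 and bleomycin 1 (1.71, adjusted p = 0.0551), a choice made after the data were seen. Nitrate was 0.352 times bleomycin, a difference of -1.35 ± 0.25 in log2(FPKM + 1) that did not pass (limma, unadjusted p = 0.000613, adjusted p = 0.0938). Against control the nitrate estimate was 0.14 ± 0.25, with a 95% interval of -0.44 to 0.73.

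Adamts5, the other classical aggrecanase, was also highest in the bleomycin libraries, over a smaller range. It stood at 7.21, 8.40 and 5.99 FPKM in control 1, 2 and 3, at 11.99, 10.7 and 9.15 FPKM in bleomycin, and at 7.11, 7.44 and 5.10 FPKM in nitrate. The bleomycin libraries were above all others without overlap. The difference of bleomycin from control, 0.51 ± 0.17 in log2(FPKM + 1) (95% interval 0.12 to 0.89), did not pass the test (limma, adjusted p = 0.106). The nitrate libraries differed from bleomycin by -0.63 ± 0.17, again without passing (adjusted p = 0.136), and their estimate against control was -0.12 ± 0.17.

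Adamts1, which encodes a versican-cutting protease and lies near Adamts5, had the highest level of the 7 in each library. Its FPKM was 22.0, 16.2 and 15.99 in control (libraries 1, 2 and 3), 36.1, 23.5 and 26.4 in bleomycin, and 16.5, 11.9 and 12.4 in nitrate. The bleomycin libraries did not overlap either other group, while nitrate and control overlapped. The estimate for bleomycin against control was 0.63 ± 0.20 in log2(FPKM + 1) (95% interval 0.18 to 1.09, limma adjusted p = 0.0896). For nitrate against bleomycin it was -1.02 ± 0.20, with an unadjusted p of 0.000792 and an adjusted p of 0.0942, and mean FPKM in nitrate was 0.474 times that in bleomycin.

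Adamts15, whose zinc-binding stretch is closest to that of Adamts4, was low and nearly level. It had 2.06, 3.44 and 2.15 FPKM in control 1, 2 and 3, 1.98, 1.94 and 2.18 FPKM in bleomycin, and 1.88, 1.996 and 1.998 FPKM in nitrate. Control 2 was the one library apart from the rest. The estimates were -0.21 ± 0.15 for bleomycin against control (limma, adjusted p = 0.423) and -0.04 ± 0.15 for nitrate against bleomycin (adjusted p = 0.929).

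Adamts9, which encodes a versican-cutting protease with a long row of thrombospondin repeats, overlapped among the 3 groups. Its FPKM was 2.89, 2.47 and 2.09 in control (libraries 1, 2 and 3), 2.83, 3.68 and 1.83 in bleomycin, and 3.197, 1.32 and 1.75 in nitrate. The spread within a group, up to 0.981 FPKM (SD, nitrate), was larger than any difference between group means. The estimate for bleomycin against control was 0.09 ± 0.25 in log2(FPKM + 1), with a 95% interval of -0.49 to 0.67.

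Adamts12, the relative of Adamts7, was lower in nitrate-treated skin than in control. It stood at 5.80, 7.13 and 4.99 FPKM in control 1, 2 and 3, at 3.92, 4.59 and 3.49 FPKM in bleomycin, and at 3.25, 2.27 and 2.92 FPKM in nitrate. The 3 groups did not overlap, with control highest and nitrate lowest. Mean FPKM ± SD (n = 3) was 5.98 ± 1.08 for control, 3.997 ± 0.554 for bleomycin and 2.81 ± 0.500 for nitrate. The fall from control to nitrate, -0.87 ± 0.16 in log2(FPKM + 1), passed (limma, adjusted p = 0.0218). The steps from control to bleomycin, -0.48 ± 0.16 (adjusted p = 0.102), and from bleomycin to nitrate, -0.39 ± 0.16 (adjusted p = 0.242), did not. The call was lost without control 1 (adjusted p = 0.0720), control 2 (0.0849), nitrate 3 (0.0638) or both control 1 and bleomycin 1 (0.105), and the limma estimates without them were -0.89 to -0.75. It was also lost with no filter on low values (0.0543) and with only the groups compared in the fit (0.0545).

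Adamts14, the procollagen N-proteinase, was lower in both treated groups. It stood at 6.83, 5.41 and 6.40 FPKM in control 1, 2 and 3, at 3.05, 3.999 and 4.02 FPKM in bleomycin, and at 4.13, 3.46 and 3.19 FPKM in nitrate. Neither treated group overlapped control, and the treated groups overlapped each other. Bleomycin was 0.593 times control in mean FPKM, and the difference of -0.62 ± 0.14 in log2(FPKM + 1) passed (limma, adjusted p = 0.0310), as did that of nitrate from control, -0.65 ± 0.14 (adjusted p = 0.0316). Nitrate and bleomycin differed by -0.03 ± 0.14, with a 95% interval of -0.34 to 0.29. The bleomycin call was lost on leaving out any 1 of the 6 libraries of that comparison (limma adjusted p 0.0584 to 0.0897) and both control 1 and bleomycin 1 (0.183), with estimates of -0.71 to -0.46. The nitrate call was lost without control 1 (0.103), control 2 (0.0766), control 3 (0.0693), nitrate 3 (0.0997) or both control 1 and bleomycin 1 (0.119), and with only the groups compared in the fit (0.0619). With no filter on low values neither call held (0.0716 for bleomycin and 0.0762 for nitrate), nor with the replicate number as a block (0.0649 and 0.0554).

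**Figure D2:**
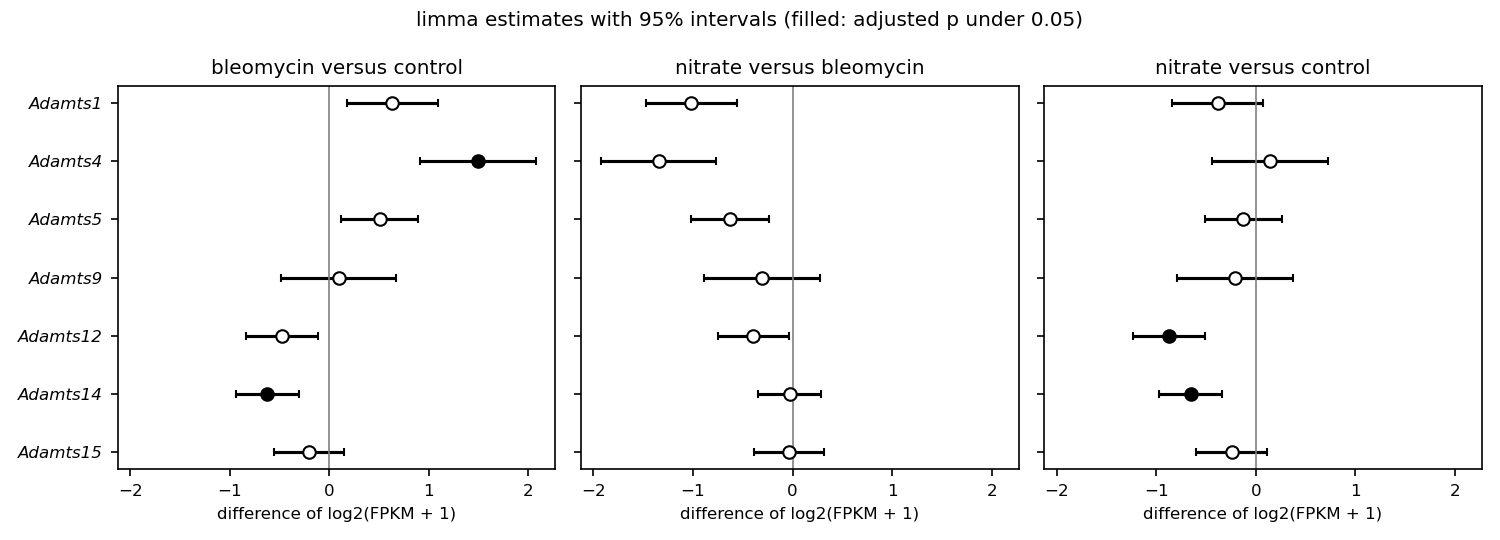
Estimated difference of log2(FPKM + 1) for each of the 7 genes in the 3 comparisons, with 95% intervals from limma; filled points passed an adjusted p under 0.05. Adamts4 (1.49) and Adamts14 (-0.62) passed for bleomycin against control, none passed for nitrate against bleomycin, and Adamts12 (-0.87) and Adamts14 (-0.65) passed for nitrate against control.

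In the comparison of bleomycin with control, 1 of the 7 genes was called higher and 1 lower, where 4.74% of the 14645 tested genes were called higher and 3.69% lower. The groups did not overlap for 3 genes that were higher and 2 that were lower, against 18.4% and 17.3% of all tested genes. The median estimate of the 7 was 0.09 in log2(FPKM + 1), beside 0.01 for all tested genes. Estimates after bleomycin were above 0 for 4 of the 7 genes and below 0 for 3.

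In the comparison of nitrate with bleomycin none of the 7 genes was called, and neither was any other gene (limma, percent called 0; 2624 genes, 17.9%, had an unadjusted p under 0.05, and voom on the recovered reads also called 0). All 7 estimates were below 0, with a median of -0.39 beside -0.0029 for all tested genes. The groups did not overlap for 4 of the 7, Adamts1, Adamts4, Adamts5 and Adamts12, each lower in nitrate, against 11.8% of all tested genes. In the comparison of nitrate with control 2 of the 7 were called lower and 0 higher, where 4.9% of tested genes were called lower and 3.63% higher. The groups did not overlap for 3 of the 7, Adamts12, Adamts14 and Adamts15, each lower in nitrate, against 17.5% of all tested genes. The 3 comparisons share libraries, so their values stand side by side and are not independent.

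The order of the 7 levels differed among the groups, most of all in the place of Adamts4. Adamts1 was highest in each group and did not overlap the next gene. In control it was followed by Adamts5, Adamts14, Adamts12, Adamts4, Adamts15 and Adamts9, and neighbours in that order overlapped in FPKM. In bleomycin Adamts4 came second and was above Adamts5 in 3 of 3 libraries, although their ranges overlapped. Adamts12, Adamts14, Adamts9 and Adamts15 followed Adamts5. In nitrate Adamts5 was again above Adamts4. Adamts4 made up 8.47 ± 1.93% (SD, n = 3) of the summed FPKM of the 7 genes for control, 19.9 ± 3.74% for bleomycin and 12.7 ± 2.05% for nitrate.

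Ratios within a library do not depend on how libraries were scaled. The FPKM of Adamts4 over that of Adamts5 was 0.777, 0.402 and 0.505 in control (libraries 1, 2 and 3), 1.05, 1.45 and 1.14 in bleomycin, and 0.895, 0.508 and 0.679 in nitrate. The bleomycin libraries were above all others, and control and nitrate overlapped. On the log2 scale the mean ratio was higher by 1.16 in bleomycin than in control (exact permutation test, two-sided, p = 0.1) and nitrate differed from bleomycin by -0.83 (exact p = 0.1), where 0.1 is the smallest p that 3 libraries against 3 allow. Nitrate and control differed by 0.32 (exact permutation p = 0.4).

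Timp3 encodes the tissue inhibitor that binds Adamts4 and Adamts5 most tightly, so the summed FPKM of both aggrecanases was set against it. This ratio was 0.606, 0.416 and 0.369 in control (libraries 1, 2 and 3), 1.26, 1.33 and 0.957 in bleomycin, and 0.569, 0.343 and 0.356 in nitrate. Again each bleomycin library was above each of the others. Timp3 itself stood at 24.6 ± 3.56 FPKM in control, 19.9 ± 0.516 in bleomycin and 26.8 ± 5.08 in nitrate (SD, n = 3), and its difference of bleomycin from control, -0.29 ± 0.15, did not pass (limma, adjusted p = 0.268). These are ratios of transcripts and measure neither protein nor protease activity.

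The N-proteinases were set against their main substrate in the same way. Adamts2 and Adamts14 together had 17.0, 15.6 and 15.9 FPKM per 1000 FPKM of Col1a1 in control (libraries 1, 2 and 3), 30.6, 29.5 and 29.6 in bleomycin, and 32.3, 34.7 and 25.2 in nitrate. Both treated groups were above control without overlap. Col1a1 itself had a mean of 2661 FPKM in control, 937 in bleomycin and 860 in nitrate. In the same order Adamts2 had means of 36.8, 24.3 and 23.2 FPKM and Adamts14 of 6.21, 3.69 and 3.59. The ratio was thus higher while the N-proteinases and Col1a1 were all lower in mean FPKM. Adamts14 was the smaller of the pair, with 14.6 ± 2.85% of the summed FPKM of Adamts2, Adamts3 and Adamts14 in control, 13.4 ± 2.91% in bleomycin and 14.2 ± 4.23% in nitrate (SD, n = 3).

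**Figure D3:**
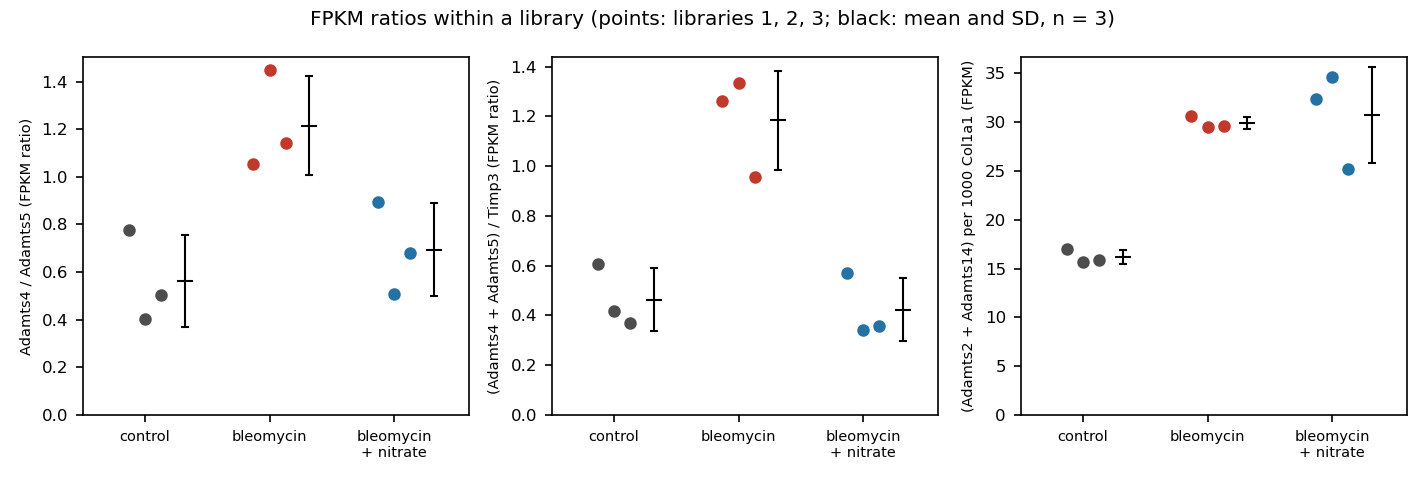
FPKM ratios within each library for Adamts4 over Adamts5, for Adamts4 plus Adamts5 over Timp3, and for Adamts2 plus Adamts14 per 1000 Col1a1; points are libraries 1, 2 and 3 and the black bar is the mean with its SD (n = 3). The first ratio was 1.05 to 1.45 in bleomycin against 0.402 to 0.777 in control, and the last was 29.5 to 30.6 in bleomycin against 15.6 to 17.0 in control.

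Of the 12 other ADAMTS genes, 4 were expressed enough to be tested, and Adamts10 alone was called, lower in bleomycin than in control. Adamts10, whose product associates with fibrillin microfibrils, stood at 4.03, 5.19 and 5.38 FPKM in control, 2.77, 2.82 and 2.92 in bleomycin, and 3.74, 4.31 and 5.41 in nitrate. Its difference of bleomycin from control was -0.61 ± 0.14 (limma, adjusted p = 0.0384), and the call was lost without control 2 (0.138), control 3 (0.112), bleomycin 1 (0.0973), bleomycin 2 (0.0947), bleomycin 3 (0.101) or both control 1 and bleomycin 1 (0.111), and with no filter (0.0860). Nitrate was above bleomycin without overlap, but the difference of 0.51 ± 0.14 did not pass (adjusted p = 0.142). Adamts2, the main N-proteinase of skin, had 36.8 ± 4.996, 24.3 ± 6.61 and 23.2 ± 9.01 FPKM in control, bleomycin and nitrate (SD, n = 3), and its bleomycin estimate of -0.60 ± 0.27 did not pass (adjusted p = 0.199). Adamts7 had 1.33 ± 0.299, 2.48 ± 0.553 and 1.57 ± 0.320 FPKM, opposite in order to its relative Adamts12 between control and bleomycin (0.57 ± 0.17, adjusted p = 0.0746). Of 7 genes for ADAMTS-like proteins, which lack the protease domain, 4 were tested and 0 were called in any of the 3 comparisons by limma at an adjusted p under 0.05.

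Vcan and Cd44, genes for a substrate and a partner that ADAMTS aggrecanases meet in hyaluronan-rich matrix, were higher in bleomycin. Of 13 genes of this matrix 6 were tested, and 3 were called higher and 1 lower in bleomycin than in control. Of these 4, Has3 (higher) reached 1 FPKM in no control library and Hapln4 (lower) in control libraries alone, so passing the filter fixed their direction and their calls do not count as support. Vcan, which encodes versican, stood at 6.19 ± 1.25 FPKM (SD, n = 3) for control, 10.6 ± 1.01 for bleomycin and 6.93 ± 1.08 for nitrate, and rose by 0.70 ± 0.16 with bleomycin (limma, adjusted p = 0.0335). Its call held without control 2 and was lost without each of the other 5 libraries of that comparison (adjusted p 0.0749 to 0.0969), without both control 1 and bleomycin 1 (0.146), with no filter on low values (0.0764) and with the replicate number as a block (0.0636). Cd44, the hyaluronan receptor, stood at 24.4, 17.5 and 22.6 FPKM in control, 56.9, 57.6 and 60.1 in bleomycin, and 41.5, 32.02 and 34.4 in nitrate. It rose by 1.41 ± 0.15 with bleomycin (adjusted p = 0.00387) and was higher in nitrate than in control (0.72 ± 0.15, adjusted p = 0.0294). The latter call held without nitrate 2 and was lost without each of the other 5 libraries of that comparison (adjusted p 0.0517 to 0.101), without both control 1 and bleomycin 1 (0.0963), with no filter (0.0695) and with only the groups compared in the fit (0.0709).

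Has3, a hyaluronan synthase, stood at 0.769, 0.690 and 0.802 FPKM in control, 11.7, 9.87 and 4.51 in bleomycin, and 2.78, 0.727 and 3.28 in nitrate. It was tested through 3 bleomycin and 2 nitrate libraries. It rose by 2.38 ± 0.39 with bleomycin (limma, adjusted p = 0.0120), a call lost without control 2 (0.0524) and without both control 1 and bleomycin 1 (0.0962). Hapln4, a link protein gene, was called lower at levels near the limit of testing, 1.09 ± 0.0370 FPKM in control and 0.145 ± 0.0390 in bleomycin, and it was tested only because of its control libraries. Its bleomycin call was lost on leaving out any 1 of the 6 libraries (adjusted p 0.0688 to 0.0953), without both control 1 and bleomycin 1 (0.146), with the replicate block (0.0502) and with a pseudocount of 0.1, which moved the estimate from -0.87 to -2.29 (0.116). In the comparison of nitrate with bleomycin 0 of the 6 tested genes were called. Acan, the aggrecan gene, was too low to test, at 0.0373, 0.315 and 0.394 FPKM on average in control, bleomycin and nitrate, and 5 cartilage markers together reached 0.320 to 0.993 FPKM.

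Among 14 genes that activate, inhibit or clear ADAMTS proteases, all 14 were tested, and bleomycin had 1 called higher and 1 lower. Furin, the convertase that removes ADAMTS propeptides, stood at 15.3, 16.5 and 15.7 FPKM in control, 25.9, 25.2 and 22.3 in bleomycin, and 22.0, 17.9 and 16.04 in nitrate. It rose by 0.60 ± 0.13 with bleomycin (limma, adjusted p = 0.0278), a call lost on leaving out any 1 of the 6 libraries (0.0543 to 0.0849) or both control 1 and bleomycin 1 (0.169), and with no filter (0.0651). Timp4, a metalloproteinase inhibitor, stood at 4.64, 5.81 and 4.64 FPKM in control, 0.614, 0.940 and 1.30 in bleomycin, and 1.15, 1.08 and 0.758 in nitrate. It was lower than in control in both, with a difference of -1.64 ± 0.17 for bleomycin (adjusted p = 0.00387) and of -1.59 ± 0.17 for nitrate (adjusted p = 0.00761). Timp1, another inhibitor of this family, had 19.1 ± 14.9, 50.2 ± 11.3 and 10.9 ± 6.27 FPKM in control, bleomycin and nitrate, and its estimates of 1.56 ± 0.50 for bleomycin against control (adjusted p = 0.0937) and -2.20 ± 0.50 for nitrate against bleomycin (adjusted p = 0.120) did not pass.

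Most genes tested for fibrillar procollagens and their processing were lower in both treated groups, as Adamts14 was. Of 8 genes of procollagen processing 7 were tested, and 5 were called lower and 0 higher in bleomycin than in control, and likewise 5 and 0 in nitrate than in control. Pcolce, which encodes an enhancer of the C-proteinase, stood at 59.6 ± 10.3, 30.9 ± 3.84 and 22.5 ± 1.42 FPKM in control, bleomycin and nitrate (SD, n = 3), with limma differences from control of -0.92 (adjusted p = 0.0116) and -1.36 (adjusted p = 0.00761). Pcolce2, its relative, stood at 16.1 ± 2.54, 1.51 ± 0.640 and 4.86 ± 3.36 FPKM, with differences from control of -2.79 ± 0.37 in bleomycin (adjusted p = 0.00663) and -1.69 ± 0.37 in nitrate (0.0345). The other 3 were Col1a1, Col1a2 and Col3a1, which encode the chains of the main fibrillar collagens of skin. Without both control 1 and bleomycin 1, 0 of the 5 were called in either comparison, with an adjusted p of 0.0933 and 0.0612 for Pcolce and 0.0655 and 0.118 for Pcolce2. The nitrate call of Pcolce2 also ended without control 1 (0.0937), control 2 (0.129), control 3 (0.0627), nitrate 1 (0.0869) or nitrate 3 (0.0938), with no filter (0.0807) and with only the groups compared in the fit (0.0694). For Col3a1 the bleomycin call ended without control 1, control 2, bleomycin 1 or bleomycin 3 (0.0537 to 0.0830), and for the 3 collagen genes the nitrate calls ended without control 1 or control 2 (0.0513 to 0.0711), and for Col1a2 and Col3a1 also without nitrate 3 (0.0554 and 0.0580). Bmp1 and Tll1, which encode C-proteinases, were not called and had the 2 estimates above 0 in bleomycin against control. In nitrate against control all 7 estimates were below 0. Mean FPKM in control, bleomycin and nitrate was 12.6, 14.5 and 12.6 for Bmp1 and 1.77, 2.06 and 1.11 for Tll1.

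**Figure D4:**
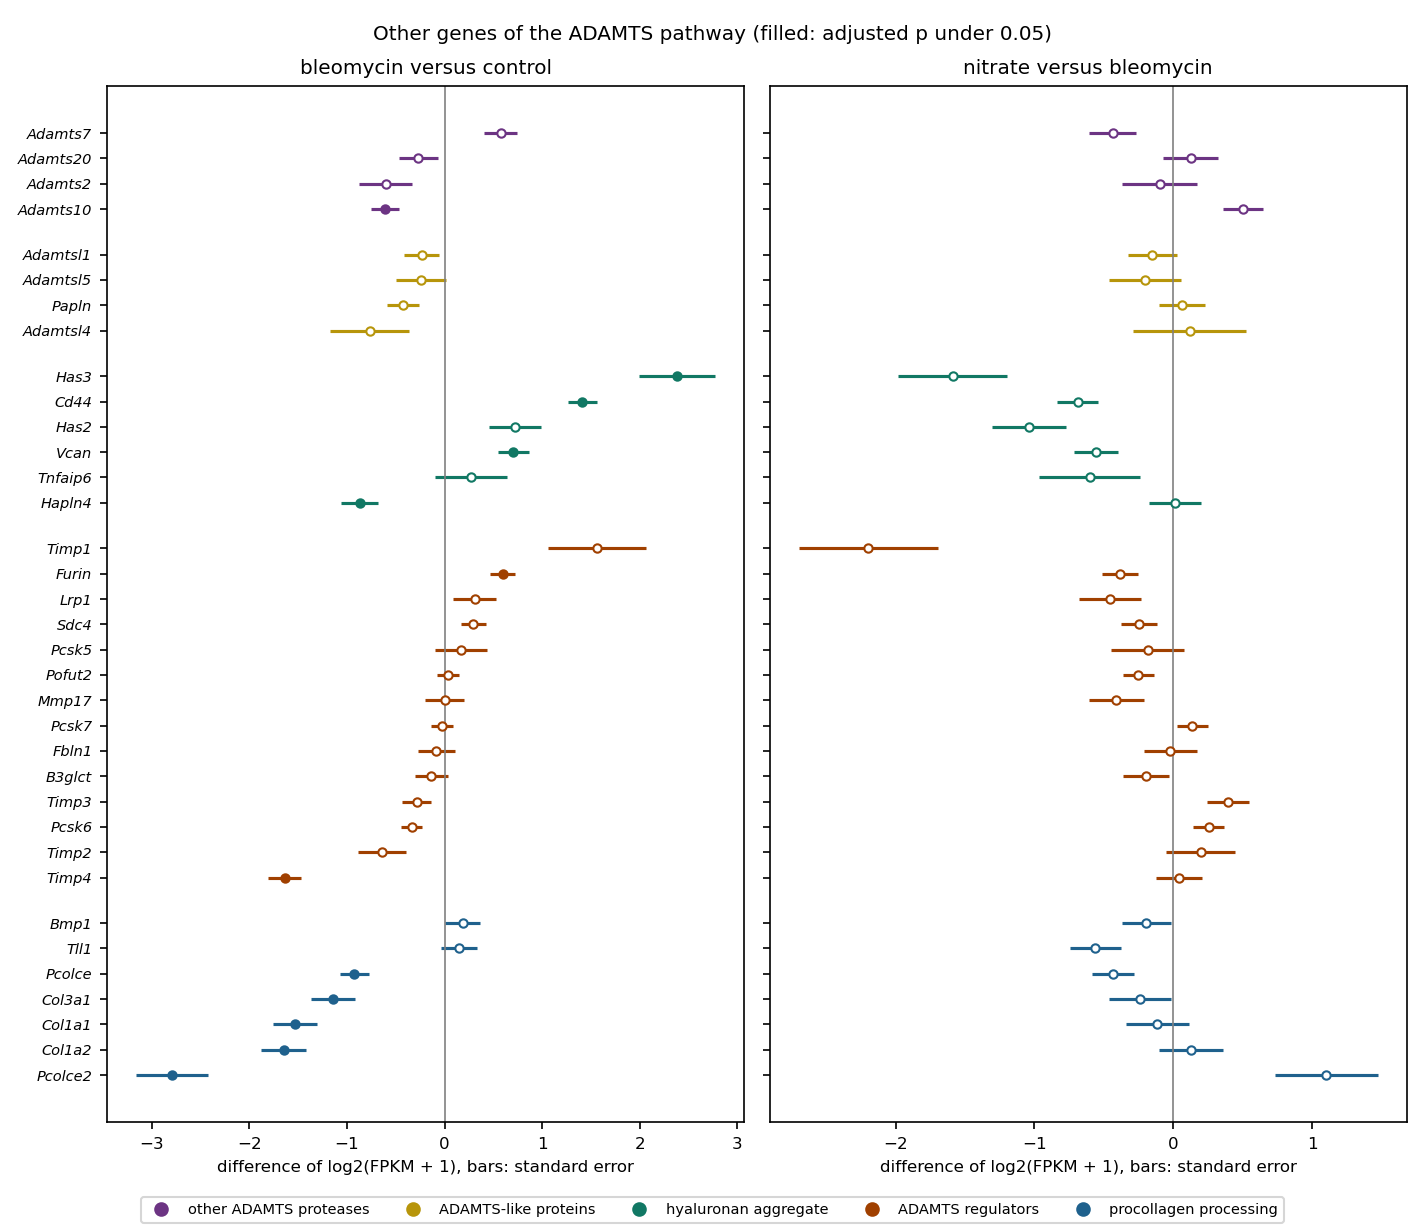
Estimated difference of log2(FPKM + 1) with its standard error for the tested genes of 5 lists, in bleomycin against control (left) and nitrate against bleomycin (right); the panels have separate axes, and filled points passed an adjusted p under 0.05 (limma). Has3 (2.38) and Cd44 (1.41) lie to the right and Timp4 (-1.64) and Pcolce2 (-2.79) to the left in the left panel, and no point is filled in the right panel.

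Il1b and Il1a, cytokines known to induce aggrecanases in connective tissue cells, were higher in bleomycin. Of 7 such cytokine genes 6 were tested, and 4 were called higher than in control by limma and 0 lower, namely Il1b (3.89, adjusted p = 0.00253), Osm (1.30, 0.0113), Il6 (1.22, 0.0212) and Il1a (1.07, 0.0409). Osm, Il6 and Tnf reached 1 FPKM in bleomycin libraries alone, which fixed their direction in both comparisons with bleomycin, and the calls of Osm and Il6 do not count as support. Il1b, an inflammatory cytokine, kept its call in all 15 alternatives. The calls ended without both control 1 and bleomycin 1 for Osm (0.0902), Il6 (0.0812) and Il1a (0.200). That of Il6 also ended without control 1, control 2, control 3 or bleomycin 3 (0.0517 to 0.0735), and that of Il1a without control 1, control 2, bleomycin 1 or bleomycin 3 (0.103 to 0.148), with no filter (0.0900), with only the groups compared in the fit (0.0600) and with voom on recovered reads (0.0508). In nitrate against bleomycin 0 of the 6 were called, and the other 3 tested genes had estimates of -0.54 (Il1a), -3.14 (Il1b) and -0.57 (Tgfb1).

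Markers of cell types were measured beside these genes. The summed FPKM of 8 macrophage markers was 419 to 620 in control, 997 to 1809 in bleomycin and 319 to 812 in nitrate, and no marker was at 0. Of the 8, 1 was called higher in bleomycin than in control (Lyz2, 1.45, limma adjusted p = 0.0284) and 8 of 8 estimates were above 0. Over the 9 libraries the mean macrophage level had a Pearson correlation of 0.81 with Adamts4, 0.86 with Adamts1 and 0.80 with Adamts5, given as a description of libraries that share their groups. The summed FPKM of 10 immediate early genes was 264 to 309 in control, 387 to 1371 in bleomycin and 377 to 386 in nitrate. Of 4 keratinocyte markers, 2 were called higher in bleomycin. Macrophage markers were not alone in their correlation with Adamts4. It was 0.69 for the immediate early genes, 0.64 for the keratinocyte markers and -0.74 for the fibroblast markers. For the cytokine genes and the genes of hyaluronan-rich matrix described above it was 0.88 and 0.89. The hair follicle markers, with 0 of 15 called in any comparison by limma, had a correlation of -0.20 with Adamts4. The part of these markers in the Adamts4 result was not tested.

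Summed FPKM of other marker lists was lower where Adamts12 and Adamts14 were lower. The 7 mural cell markers summed to 267 to 301 FPKM in control, 165 to 202 in bleomycin and 144 to 193 in nitrate, with 1 of 7 called lower in bleomycin (Myh11, -1.69, limma adjusted p = 0.00856) and 2 of 7 in nitrate. The 8 fat cell markers summed to 1195 to 1798 FPKM in control, 762 to 907 in bleomycin and 187 to 776 in nitrate, with 5 of 8 called lower in nitrate than in control and 0 in bleomycin. The 7 endothelial markers summed to 149 to 172, 98.0 to 114 and 62.6 to 112 FPKM, with 3 of 7 called lower in nitrate than in control. The 7 fibroblast markers summed to 377 to 630 FPKM in control, with no overlap with the 167 to 283 of bleomycin or the 193 to 355 of nitrate. Their mean log2(FPKM + 1) was 4.49 to 5.14 in control, 3.53 to 4.32 in bleomycin and 3.88 to 4.73 in nitrate, which overlapped control. Estimates against control were above 0 for 1 of the 7 in bleomycin and for 3 of the 7 in nitrate. Mfap5 had a mean of 5.31 FPKM in control and 10.5 in bleomycin. Of these 7, bleomycin had 1 called lower than control (Clec3b, -2.95, limma adjusted p = 0.0276) and nitrate 0. None of the 4 lists had a marker at 0. Over the 9 libraries Adamts14 had a Pearson correlation of 0.92 with the mural markers and 0.90 with the mitochondrial genes, and Adamts12 had 0.92 with the fat cell markers and 0.89 with the mural markers. The fibroblast markers had correlations of 0.47 with Adamts14 and 0.31 with Adamts12. Their part in the Adamts12 and Adamts14 results was not tested.

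**Figure D5:**
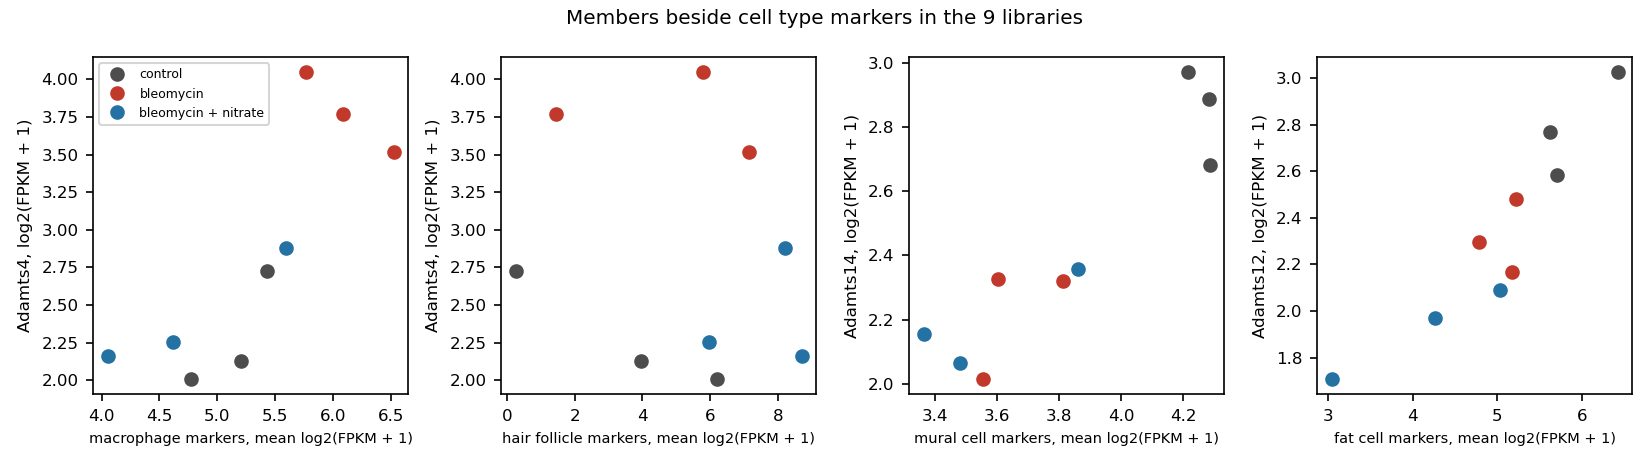
Level of Adamts4, Adamts14 or Adamts12 in log2(FPKM + 1) against the mean log2(FPKM + 1) of macrophage, hair follicle, mural cell or fat cell markers, one point per library (9 libraries, coloured by group). The bleomycin libraries are highest in Adamts4 and in macrophage markers (correlation 0.81), and Adamts4 does not follow the hair follicle markers (-0.20).

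Among themselves the 7 genes were compared by their levels over the 9 libraries, again as a description with points that share groups. Adamts1, Adamts4 and Adamts5 had pairwise Pearson correlations of 0.81 to 0.83. With each library taken relative to its group mean, these were 0.57 for Adamts1 with Adamts4, 0.33 for Adamts1 with Adamts5 and 0.41 for Adamts4 with Adamts5. Adamts12 and Adamts14 had a correlation of 0.75 over the libraries and -0.09 relative to group means. With 3 libraries per group, values relative to group means are imprecise and cannot show that a likeness within groups is absent. Adamts12 and Adamts15 had 0.66 over the libraries and 0.44 relative to group means. For Adamts4 with Adamts9 the value relative to group means was the higher, 0.86 against 0.57 over the libraries.

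For each gene the 3 tested genes with the most similar pattern were taken by Pearson correlation of log2(FPKM + 1) over the 9 libraries. For Adamts4 they were Il1rl1, which encodes the receptor ST2 (0.977), Ckap4 (0.977) and Nfe2l2 (0.973). For Adamts1 they were Gm5150, Arhgap4 and Rab1a (0.962 to 0.969), and for Adamts5 they included Stom (0.971) and Thbd (0.951). For Adamts12 they were Copa, Fam98a and Cd209f (0.971 to 0.981), and for Adamts14 they were Gm10297, Gm13667 and Il12rb2 (0.972 to 0.978). For Adamts15 they were Meis3, Fars2 and Pcca (0.951 to 0.959), and for Adamts9, the gene with the weakest matches, Cblb, Gadl1 and Slc39a7 (0.880 to 0.913). These are the highest of 14645 values each and come from shared libraries.

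The promoters of Adamts12 and Adamts14, the genes called lower in nitrate than in control, are shown because both genes passed in that comparison. The windows are the 250 bases before the RefSeq start (GRCm38.p6), and 4 of the 7 genes (Adamts1, Adamts9, Adamts12 and Adamts14) had one. Both strands were searched for the AP-1 site TGANTCA, the cyclic AMP response element TGACGTCA, the TATA box TATAAA, the GC box GGGCGG and the CCAAT box CCAAT, with overlapping matches counted, and matches are in capitals.

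Adamts12 (chr15:11064523-11064772, plus strand): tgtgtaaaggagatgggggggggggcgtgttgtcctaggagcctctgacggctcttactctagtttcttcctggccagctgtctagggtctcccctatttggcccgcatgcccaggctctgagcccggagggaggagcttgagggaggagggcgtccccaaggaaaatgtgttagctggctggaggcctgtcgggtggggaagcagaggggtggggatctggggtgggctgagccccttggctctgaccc
Adamts14 (chr10:61273420-61273669, minus strand): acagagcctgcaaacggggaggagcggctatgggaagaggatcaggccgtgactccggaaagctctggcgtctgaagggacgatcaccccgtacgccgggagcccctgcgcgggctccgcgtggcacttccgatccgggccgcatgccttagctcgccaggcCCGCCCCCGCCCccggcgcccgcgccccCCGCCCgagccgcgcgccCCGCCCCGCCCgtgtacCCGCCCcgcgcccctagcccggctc

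The Adamts14 window held 6 GC boxes, all on the opposite strand as printed, and 76.4% G and C. The Adamts12 window held none of the 5 motifs and had 63.2% G and C. Of 32851 promoter windows of this length, 32.7% held a GC box, 12.4% a TATA box, 33.8% a CCAAT box, 6.75% an AP-1 site and 1.55% a cyclic AMP response element, and the median G and C content was 52.4%. The Adamts1 window held 1 TATA box and 3 GC boxes. None of the 4 windows held an AP-1 site, a cyclic AMP response element or a CCAAT box.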

How the data were processed

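RNA from 9 skin libraries was measured, grouped by the sample titles. The authors deposited 1 table of FPKM per gene and library on build mm10, per the submitters' processing notes. Aligner, counter, versions and filters: not given in the sources used here. FPKM times gene length, divided by a constant estimated for each library, came to whole numbers within 0.01 for 100% of values. These numbers were taken as reads. The library size behind the FPKM was 0.916 to 0.967 times the summed reads in control. It was 0.995 to 1.07 times in bleomycin and 1.03 to 1.09 times in nitrate. Counting error allows up to 3 reads where 0 are listed. The 14645 genes that reached 1 FPKM in 3 or more libraries entered limma 3.58.1 (R 4.3.3) as log2(FPKM + 1), with 3 group means in 1 model, eBayes (trend, robust), two-sided tests and Benjamini-Hochberg adjustment over each comparison. The scripts were first checked on simulated data. The text names the 7 ADAMTS genes, called genes and genes of smallest p from each list (in part), and the 3 most similar genes. Some results are not reported here. These genes and lists were chosen with earlier results of these data known. Alternatives were a pseudocount of 0.1, no filter, a mean of at least 5 FPKM, median-of-ratios and quantile scaling, only the groups compared, a replicate block and each library left out. Added after seeing the data were voom on the recovered reads, with the library sizes behind the FPKM, and leaving out control 1 and bleomycin 1, the lowest in hair follicle markers.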

Additional observations from a re-analysis of the deposited data

How the results depend on the processing

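Bleomycin against control had 1234 genes called, 676 with no filter and 747 with a mean of at least 5 FPKM. Leaving out 1 library gave 334 to 695, and leaving out both control 1 and bleomycin 1 gave 137. Of the 7 ADAMTS genes 2 were called, 1 with no filter, 0 to 1 without 1 library and 0 without both. With the higher mean 1 was called, since that filter left out Adamts14. Nitrate against control had 1249, 294 with no filter, 306 with only the groups compared, 45 to 2882 without 1 library and 23 without both. Of the 7 genes 2 were called, and 0 to 2 without 1 library. With no filter, with only the groups compared and without both, 0 were called. The higher mean left out both called genes, Adamts12 and Adamts14, so it could not test their calls. Nitrate against bleomycin had 0 genes called and 0 to 37 without 1 library, with 0 of the 7 in each case. Same-numbered libraries did not all deviate together (correlations of -0.39 to 0.52), and differently numbered ones had correlations of -0.57 to 0.58. These values do not decide whether the numbers pair the libraries. With the replicate block 1039, 10 and 1067 genes were called in bleomycin against control, nitrate against bleomycin and nitrate against control, and 3, 1 and 1 of the 7. Adamts1 then passed in the first and second of these (adjusted p 0.0183 and 0.0461), Adamts5 in the first (0.0481), and Adamts14 in neither comparison with control (0.0649 and 0.0554). Estimates that were not called crossed 0 on leaving out 1 library, with ranges of -0.075 to 0.289 for Adamts9 in bleomycin against control, of -0.130 to 0.036 for Adamts14, -0.383 to 0.111 for Adamts2 and -0.050 to 0.239 for Adamts20 in nitrate against bleomycin, and of -0.080 to 0.363 for Adamts4 and -0.234 to 0.023 for Adamts5 in nitrate against control. The cause of these shifts was not tested. The planned voom with TMM was not run. On the reads recovered from the FPKM, voom with the library sizes behind the FPKM called 1125, 0 and 1263 genes. Depth limits the 7 genes little, since each had over 100 reads in every library.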

Other observations

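The 8 ADAMTS genes below the level for testing were measured by few reads, summed over the 3 libraries of a group. Adamts18 reached 88 (control), 160 (bleomycin) and 451 (nitrate) reads, of which nitrate 3 held 243. Adamts19 had 12, 7 and 46 reads, with 15, 16 and 15 in nitrate 1, 2 and 3 and 0 to 8 in each other library. Adamts16, by contrast, had 12, 70 and 25 reads, of which bleomycin 2 held 42. Adamts13 had 0 reads in each control library, where counting error allows up to 3, and 18 and 20 reads in bleomycin and nitrate. Adamts3, Adamts6, Adamts8 and Adamts17 had 36 to 298 reads in each group. Has1, a hyaluronan synthase also below that level, had 59, 280 and 26 reads, with 178 in bleomycin 3. These counts were not tested.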
